A study of Mus musculus with 9 samples.

Results

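Cytochrome P450 genes were described in mouse olfactory epithelium (OE), taken as every gene whose symbol is Cyp followed by a number. There were 102 such genes among the 23607 genes counted, in 17 families and 40 subfamilies. The RNA came from a pS6-IP, in which an antibody to the phosphorylated ribosomal protein S6 pulls down mRNAs on the ribosomes of active cells, and was sequenced in 9 C57BL/6 mice. For 1 hr, 3 mice were exposed in a closed container to distilled water on filter paper (control), 3 to 1% heptanal and 3 to 100% heptanal, heptanal being an aldehyde odorant. Each group held 1 mouse of postnatal day 22, 1 of day 21 and 1 of day 18, and the methods state that mice compared with each other were littermates of the same sex. The 3 mice of a day were therefore compared with each other, and age, litter, sex and day of the experiment cannot be told apart between days.

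P450 enzymes are heme proteins, most of them in the membrane of the endoplasmic reticulum, that insert oxygen into small lipid-soluble molecules with electrons supplied by the reductase Por. Families with low numbers act mainly on foreign chemicals, and the others on fatty acids, sterols, steroids, retinoids or vitamin D. In the OE they are known from sustentacular cells, the supporting cells around the olfactory sensory neurons (OSNs), and from Bowman's glands, where they modify odorants and inhaled toxicants.

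The total estimated count was 5438494 to 9707592 per mouse, so that 3 counts, taken as the limit that a count of 0 allows, corresponded to 0.309 to 0.552 CPM, counts scaled to a library of 1000000. P450 genes took 0.617% to 1.02% of all counts. Markers of OSNs and of sustentacular cells were present in every mouse, with a mean of 6814 CPM for Omp, the olfactory marker protein of mature OSNs, and of 2515 CPM for Cbr2, a carbonyl reductase of sustentacular cells. The library of the day 21 mouse given 1% heptanal stood apart from the other mice of its day. Over the P450 genes tested, its deviations from the group means had a correlation of -0.098 and 0.019 with those of the control and the 100% heptanal mouse of day 21, whereas the other same-day pairs had 0.53 to 0.74. Results at 1% heptanal are therefore also given without it. RNA that did not pass through the pS6-IP was not analysed here, so a higher mRNA level and a higher recovery in the IP cannot be told apart, and neither can fewer cells of a type and less RNA per cell.

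Because the most abundant P450 mRNA, Cyp2a5, has a near copy, 2 stretches of coding exon are shown, of 50 bases like the sequence windows compared here. Cyp2a5 is a coumarin and nicotine hydroxylase and lies at chr7:26835339-26843264 on the plus strand (GRCm38.p6, RefSeq). The near copy Cyp2a4, a steroid hydroxylase, lies at chr7:26307192-26315088 on the same strand. Both have 1485 coding bases, of which 23 differ, an identity of 98.5%. The first stretch is the same in both genes and occurs in 3 places of the genome, so a read from it cannot be placed by its sequence alone. The second holds 3 differing bases, printed in capitals, and each version occurs in 1 place.
Cyp2a5 and Cyp2a4, chr7:26842924-26842973 and chr7:26314749-26314798: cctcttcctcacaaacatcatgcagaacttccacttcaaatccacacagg
Cyp2a5, chr7:26835821-26835870: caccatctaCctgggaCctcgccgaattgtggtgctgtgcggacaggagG
Cyp2a4, chr7:26307676-26307725: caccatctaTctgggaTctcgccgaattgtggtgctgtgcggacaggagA
Of 1044 windows of 50 bases in the coding exons of Cyp2a5, 404 (38.7%) were identical in Cyp2a4 and 1006 (96.4%) matched it with at most 2 mismatches.

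The values used here are the authors' estimated counts, in which reads that map to several genes were assigned by a rescue scheme. They were set against the uniquely mapped counts, both columns being identified from their values. Over the 9 mice, shared reads made up 41.6% to 56.9% of the P450 counts and 23.7% to 30.3% of the counts of other genes. Cyp2a5 had a mean of 1141 uniquely mapped counts and of 28760 estimated counts per mouse, so that 96.0% of its count was assigned. In the control mouse of day 22 its count was 903 before the scheme, 8320 after the first step, 21583 after the second and 21589 at the end. Cyp2a4 received 0 to 40 estimated counts per mouse on 0 to 2 uniquely mapped reads, and was at 0 in each mouse where the latter were 0. Of the 1274 exon windows of Cyp2a5, 466 recurred in Cyp2a4 and 269 in the pseudogene Cyp2a21-ps. The level of Cyp2a5 is therefore better read as that of Cyp2a5 and Cyp2a4 together, with a possible part from the pseudogene.

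The other P450 genes with a mean of 100 or more counts had lower shares of assigned reads. For Cyp4a12b, a fatty acid hydroxylase, 83.5% of the count was assigned, and 935 of its 1811 exon windows recurred in its neighbour Cyp4a12a. For Cyp2g1, an enzyme known from the olfactory mucosa, 48.3% was assigned, and 222 of its windows also occurred in a stretch outside annotated genes, at chr7:26292408-26293212. Cyp2f2, which activates naphthalene in the airway, had 0% of shared reads, and its 1330 windows each occurred in 1 place.

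**Figure D1:**
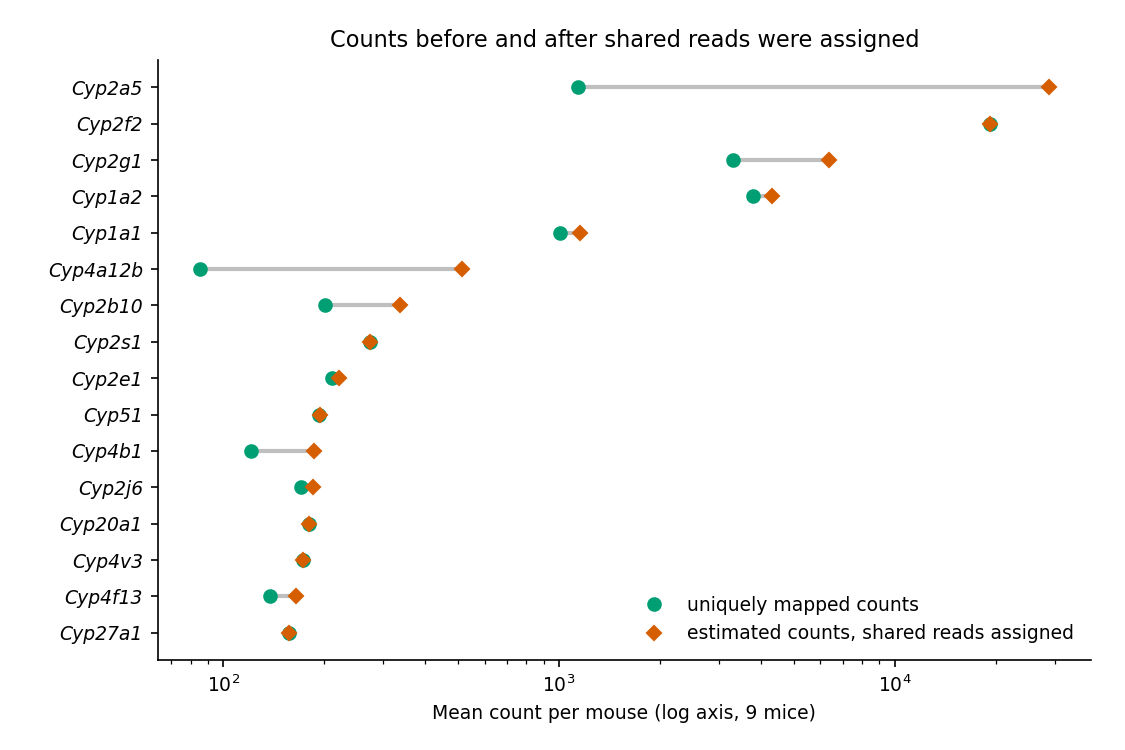
Mean count per mouse over 9 mice (log axis) for the P450 genes with a mean of 100 or more estimated counts, as uniquely mapped counts (circles) and as estimated counts with shared reads assigned (diamonds). Cyp2a5 moves from 1141 to 28760 and Cyp4a12b from 85.2 to 516, while Cyp2f2 stays at 19179.

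Counts were found for 66 of the 102 genes, and 34 had a count in all 9 mice. The other 36 had 0 counts throughout, among them Cyp17a1 of steroid synthesis. For members of large subfamilies of near copies, such as Cyp2c and Cyp2d, a 0 can also come from the assignment of shared reads. In the Cyp2c subfamily 3 of 16 genes had any count, and in Cyp2d 2 of 10. The filter on low counts left 36 P450 genes for testing, with a mean of 8 counts or more. The 30 that had counts and were not tested had means of up to 8.89.

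Levels of genes were compared as CPM per kilobase of annotated exon, since longer mRNAs can give more reads. The cDNA was primed at the poly-A tail, and ranks without length are therefore also given. Family 2 held 89.7% ± 0.799 (SD, n = 9) of the summed P450 level, family 1 7.78% ± 0.963, family 4 1.69% ± 0.234 and family 27 0.238% ± 0.0511. These were the families ranked 1 to 4, and the first 3 kept their ranks without division by length. By classes set from the family number, the foreign-chemical families 1 to 3 held 97.6% ± 0.206 of the level with 63 genes, of which 34 had counts. Fatty acid hydroxylases of family 4 followed, with 15 of 20 genes counted, and the families of sterol and bile acid enzymes, with 8 of 8 counted, held 0.422% ± 0.0697. Steroid hormone enzymes (4 of 6 counted) held 0.0145% ± 0.00858 and retinoid enzymes (3 of 3) 0.0624% ± 0.0221. Family 24, with Cyp24a1, which breaks down vitamin D, held 0.00198% ± 0.00364. Cyp24a1 had counts in 3 mice only, 12, 5 and 2 in the 1% heptanal mice of days 22, 21 and 18. Its mean of 0.315 CPM lay at the counting limit given above. Cyp27b1, which activates vitamin D, was counted in family 27 among the sterol and bile acid enzymes.

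A few genes dominated this ranking. The estimated counts given to Cyp2a5 may include reads of Cyp2a4 or Cyp2a21-ps. They held 48.6% ± 6.42 (SD, n = 9) of the P450 level, at 2209 ± 368 CPM per kilobase. With uniquely mapped counts the share of Cyp2a5 was 4.29%. Cyp2f2 stood at 1400 ± 476, Cyp2g1 at 444 ± 155 and Cyp1a2, an oxidase of aromatic amines, at 304 ± 82.6 CPM per kilobase. Together these 4 genes held 94.7% of the mean level, and the first 10 held 98%. Among all 23427 genes with an exon length, they ranked 20, 34, 132 and 206 by mean level per length.

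The remaining genes of the first 10 were lower. Cyp1a1, the inducible hydroxylase of polycyclic hydrocarbons, stood at 53.2 ± 14.8 CPM per kilobase and Cyp4a12b at 28.6 ± 12.2. Cyp2b10, known as a target of the receptor CAR, stood at 22.9 ± 5.79, and Cyp2e1, an oxidase of ethanol and small solvents, at 17 ± 8.56. Cyp2s1 (13.7 ± 2.22) and Cyp4b1 (12.9 ± 4.03), both known from airway epithelium, completed the first 10. In all, 13 P450 genes exceeded 10 CPM per kilobase and 29 exceeded 1.

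Few neighbours in the order were separated. Among the first 16 genes, the ranges over the 9 mice did not overlap for Cyp2f2 above Cyp2g1 and for Cyp1a2 above Cyp1a1, and they overlapped for the other 13 pairs of neighbours. Cyp2a5 exceeded Cyp2f2 in 8 of 9 mice, Cyp2g1 exceeded Cyp1a2 in 8 and Cyp1a1 exceeded Cyp4a12b in 7. The pairs from Cyp4a12b to Cyp4f15 were ordered as listed in 4 to 7 of 9 mice. With uniquely mapped counts Cyp2f2 ranked 1, Cyp2a5 4 and Cyp4a12b 17.

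**Figure D2:**
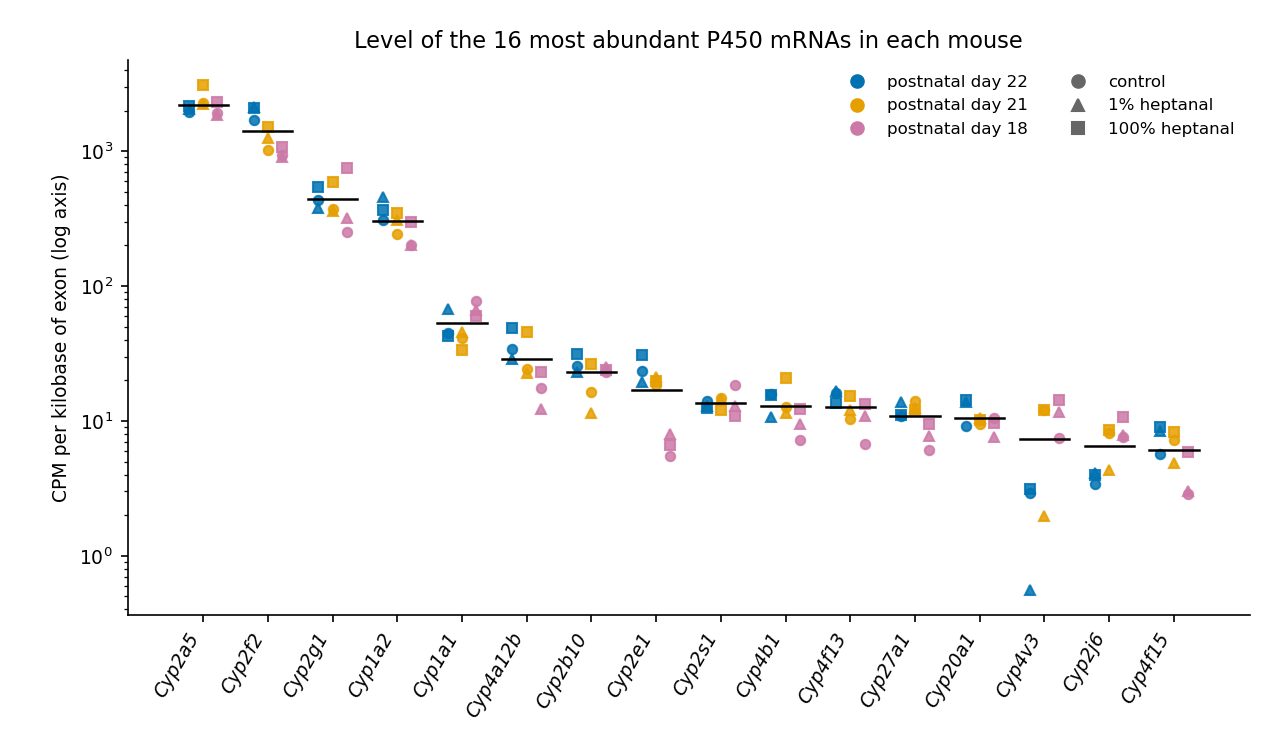
Level of the 16 most abundant P450 genes in each of the 9 mice, in CPM per kilobase of exon on a log axis, with colour for postnatal day, symbol for group and a line at the mean. The first 4 genes stand apart from the rest, with means of 304 to 2209 against 53.2 for Cyp1a1.

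At lower levels, Cyp26b1, which breaks down retinoic acid, stood at 2.67 ± 1.08 CPM per kilobase and Cyp2j6, of an arachidonic acid oxidising subfamily, at 6.53 ± 2.59. Cyp1b1, a hydroxylase of oestradiol and hydrocarbons that is induced like Cyp1a1, stood at 0.496 ± 0.369 and had 0 counts in the day 22 mouse given 100% heptanal. Of the steroid hormone enzymes Cyp19a1, the aromatase, was the member that passed the filter, at 0.502 ± 0.467.

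The next question was whether 1 hr of heptanal went with a change in these mRNAs. Genes were tested with edgeR's quasi-likelihood test with postnatal day as a block, over all 14930 genes that passed the filter. At 100% heptanal, 0 of the 36 P450 genes tested passed an adjusted p of 0.05, where 0.322% of all genes did (48, all higher). At an unadjusted p below 0.05, 4 P450 genes were higher and 0 lower, against 10.4% of all genes in either direction. The median log2 fold change was 0.25 over the 36 P450 genes and -0.0022 over all genes. Of the P450 genes 11 were higher than the control in all 3 days (18.4% of all genes were) and 4 were lower in all 3 (18.1%). A value above 0 was fitted for 23 of 36, against 49.8% of all genes. The likelihood ratio test called 1 of 36 P450 genes, Cyp2g1, where it called 297 of all 14930 genes. DESeq2, fitted to all 23607 genes, called 3 of 102 P450 genes, where it called 329 of all genes. These 3 were Cyp2g1 and 2 genes with counts in at most 2 mice, Cyp21a1 and Cyp2d26.

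Cyp2g1 had the lowest p. In the control mice of days 22, 21 and 18 it was at 801, 694 and 468 CPM, and at 100% heptanal at 1006, 1098 and 1386 CPM. The groups did not overlap, and the gap to the control was widest on day 18, where the ratio was 2.96 against 1.26 on day 22 and 1.58 on day 21. The log2 fold change was 0.86 (SE 0.22, edgeR adjusted p = 0.184), and 0.57 without the day 18 mouse given 100% heptanal. At 1% heptanal the gene was at 701, 666 and 590 CPM, within the range of the controls (log2 fold change 0.01, SE 0.21).

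Cyp4a12b was at 82.1, 58.2 and 41.8 CPM in the controls of days 22, 21 and 18 and at 117, 109 and 55 CPM at 100% heptanal. It was higher in each day, but the groups overlapped because both fell toward day 18 (log2 fold change 0.60, SE 0.15, edgeR adjusted p = 0.197). At 1% heptanal it was at 69.5, 54.7 and 29.5 CPM, below the control in each day (-0.28, SE 0.16). Between 100% and 1% heptanal it had the lowest adjusted p of the P450 genes, 0.135 with edgeR, at a log2 fold change of 0.88 (SE 0.16).

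Of the other abundant genes, Cyp1a2 was at 584, 458 and 384 CPM in the controls of days 22, 21 and 18 and at 690, 664 and 560 CPM at 100% heptanal. It was higher in each day, with overlapping groups (log2 fold change 0.45, SE 0.17, edgeR adjusted p = 0.401). Cyp2f2 went from 3092, 1871 and 1718 CPM to 3810, 2744 and 1940 CPM, again with overlap (0.34, SE 0.14, adjusted p = 0.450 with edgeR). Cyp2a5 was at 3343, 3923 and 3290 CPM in the controls and at 3695, 5290 and 3939 CPM at 100% heptanal. Its groups overlapped, since the day 22 mouse at 100% lay below the day 21 control (0.28, SE 0.14, edgeR adjusted p = 0.515). Cyp2b10, Cyp2e1 and Cyp2j6 were also higher in each day, with log2 fold changes of 0.37, 0.27 and 0.25.

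Cyp1a1 and Cyp2s1, both known as targets of the dioxin receptor Ahr, ran the other way. Cyp1a1 was at 126, 115 and 216 CPM in the controls of days 22, 21 and 18 and at 120, 93.5 and 167 CPM at 100% heptanal, with overlapping groups. Cyp2s1 was at 37.2, 38.9 and 48.8 CPM in the controls and at 32.9, 31.8 and 28.5 CPM at 100% heptanal, below every control. Neither passed the test (log2 fold change -0.26, SE 0.16 and -0.42, SE 0.18, with edgeR adjusted p = 0.635 and 0.482). Cyp1b1, with 20.4 counts per mouse, had a value of -1.35 (SE 0.92), whereas Cyp1a2, also known as an Ahr target, was higher as given above. Cyp26b1 (-0.17, SE 0.29) and Cyp4b1 (0.46, SE 0.24) did not pass the test either.

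**Figure D3:**
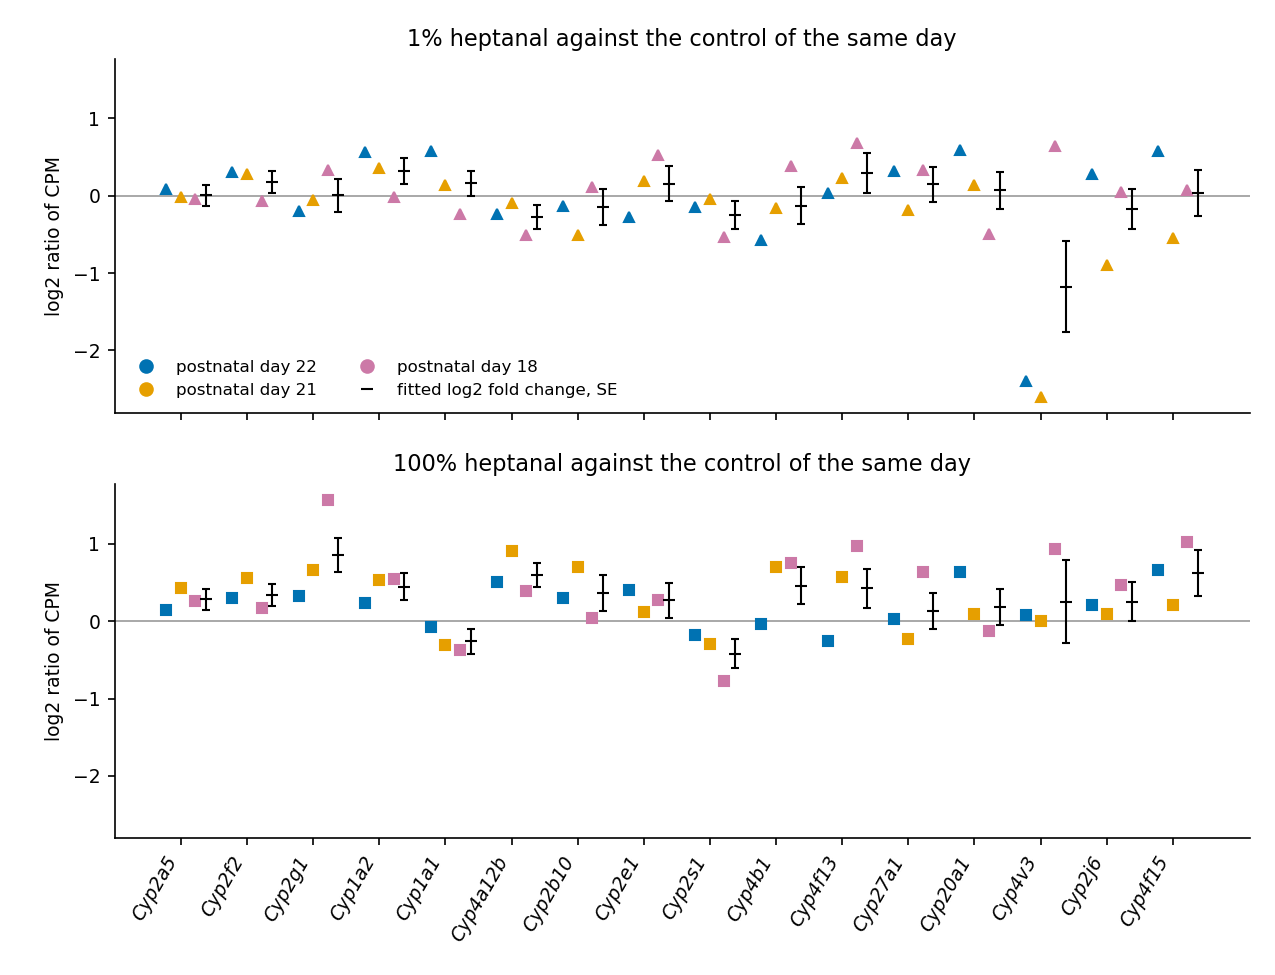
Log2 ratio of CPM to the control of the same postnatal day for the 16 most abundant P450 genes, with 1% heptanal in the upper panel and 100% heptanal in the lower, a point for each day and the fitted log2 fold change with its SE in black. At 100% heptanal Cyp2g1 reaches 0.86 and Cyp2s1 -0.42, and at 1% the 2 low points of Cyp4v3 come from days 22 and 21.

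At 1% heptanal, 0 of 36 P450 genes passed edgeR's test, as did 0% of all genes. At an unadjusted p below 0.05, 0 P450 genes were higher and 2 lower, against 3.26% of all genes. These were Cyp51, the lanosterol demethylase of cholesterol synthesis, and Cyp2a4. The latter was at 0 in all 3 mice of this group and at 2.79, 5.64 and 0 CPM in the controls of days 22, 21 and 18. Its control values rested on 1, 2 and 0 uniquely mapped reads. Cyp51, named after its value was seen, was at 17.5, 26.9 and 40.9 CPM in the controls of days 22, 21 and 18 and at 7.96, 17.2 and 25.6 CPM at 1% heptanal. It was lower in each day, with overlapping groups (log2 fold change -0.81, SE 0.20, edgeR adjusted p = 1.00), while at 100% heptanal its value was 0.02. The median log2 fold change was -0.10 over P450 genes and -0.014 over all genes. Of the 36 genes 3 were higher in all 3 days (11.5% of all genes) and 4 lower (11.7%). Without the day 21 mouse at 1% heptanal, 0 of 39 P450 genes tested passed and their median was 0.015, and the value of Cyp51 was -0.82. The likelihood ratio test called 0 and DESeq2 called 1, Cyp2j8, which had counts of 1 to 4 in 3 mice.

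Between 100% and 1% heptanal, 0 of 36 P450 genes passed edgeR's test, where 0.0804% of all genes did. At an unadjusted p below 0.05, 7 were higher and 2 lower at 100%, against 10.4% of all genes in either direction. The higher ones included Cyp4a12b, Cyp2g1 and Cyp51. They also included Cyp4v3, at 5.73 CPM in the day 21 mouse given 1% heptanal and 34.8 CPM in that day's 100% heptanal mouse. The median log2 fold change was 0.20 over the 36 P450 genes, and 0.22 over 39 without that 1% heptanal mouse. The likelihood ratio test called Cyp2g1 and Cyp4a12b, and DESeq2 called 5 genes, of which 3 had the low counts described above. The 3 comparisons share mice, so a gene's values in them are not independent.

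The summed P450 counts were higher at 100% heptanal in each day. They made up 0.848%, 0.751% and 0.617% of all counts in the controls of days 22, 21 and 18, 0.905%, 0.836% and 0.664% at 1% heptanal and 0.983%, 1.02% and 0.845% at 100% heptanal. Relative to the control of the same day, the share was 1.16, 1.36 and 1.37 times as large at 100% and 1.07, 1.11 and 1.08 times at 1% heptanal. The summed CPM of 9 sustentacular markers that are no P450 was 1.27, 1.29 and 2.0 times that of the control at 100% heptanal, and 1.04, 0.894 and 1.04 times at 1%. As CPM rather than percent of counts, the P450 sums were 8403, 7529 and 6447 in the controls of days 22, 21 and 18. At 100% heptanal they were 9839, 10442 and 8427 CPM. The ratio of P450 to sustentacular marker CPM was 0.922, 1.07 and 0.655 times that of the control at 100%. At 1% heptanal it was 1.09, 1.17 and 0.942 times. Most of the marker sum was Cbr2, Sec14l3 and Ugt2a1, at means of 2515, 1449 and 1126 CPM. Of the 9 markers, 5 were higher at 100% heptanal in all 3 days and 0 were lower in all 3. Krt8, Notch2 and Hes1 had log2 fold changes of -0.08, -0.25 and -0.17 at 100% heptanal. When mice were scaled to the sustentacular markers, the median log2 fold change at 100% heptanal was -0.30 over P450 genes and -0.57 over all genes. Under that scaling Cyp2a5, Cyp2f2, Cyp1a2, Cyp2b10, Cyp2e1, Cyp2j6 and Cyp4b1 had values below 0 and Cyp2g1 a value of 0.28.

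Markers of other cell types at 100% heptanal were also set against the control of the same day. The summed level of 5 mature OSN markers was 1.71 to 2.49 times that of the same-day control, and 1 of them, Omp, passed the test (log2 fold change 1.11, SE 0.16, edgeR adjusted p = 0.0311). Their sums ran from 4237 to 8713 CPM in the controls and from 10558 to 14891 CPM at 100% heptanal. Omp made up most of these sums, and Adcy3, Ano2, Cnga2 and Gnal had log2 fold changes of 0.34, 0.57, 1.27 and 0.78. Hemoglobin genes, which mark red blood cells, were at 0.471 to 0.716 times the control, and 0 of 4 passed. Their sums were 1677 to 12194 CPM in the controls and 1031 to 7614 CPM at 100%. Gland markers were at 0.630, 1.43 and 0.632 times the control on days 22, 21 and 18, with 0 of 7 genes past the threshold. Their sums overlapped, at 23731 to 43408 CPM in the controls and 14940 to 38957 CPM at 100%. Most of that sum was Bpifb9b, at a mean of 21961 CPM. Of the 7 genes, Sox9, Sox10, Muc5b and Obp1a were lower at 100% heptanal in all 3 days, with Obp1a at a log2 fold change of -1.55 (SE 0.29, edgeR adjusted p = 0.0774), and Bpifa1 was higher in all 3. The sustentacular sums ran from 5147 to 5588 CPM in the controls and from 6538 to 10417 CPM at 100% heptanal, and 0 of 9 genes passed. No marker of these 4 lists was at 0 in all mice. In the lists for immature OSNs, horizontal basal cells, microvillous cells, respiratory ciliated cells, ensheathing glia, immune cells and endothelium, 0 genes passed. The part of these cell types in the P450 values was not tested.

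**Figure D4:**
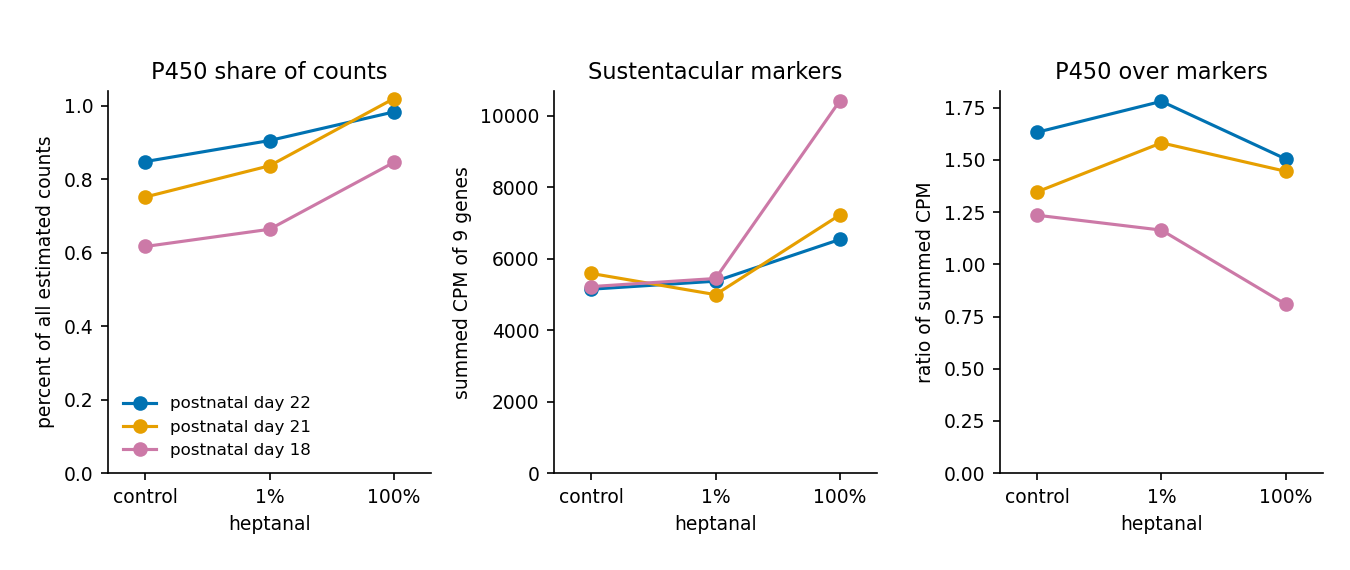
Per mouse and joined within postnatal day, the P450 share of all estimated counts (percent), the summed CPM of 9 sustentacular markers and the ratio of P450 to marker CPM, against heptanal concentration. The share is higher at 100% heptanal in each day (ratios of 1.16 to 1.37), while the ratio to the markers is lower on days 22 and 18 and 1.07 times the control on day 21.

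The genes that serve P450 enzymes showed no calls. Of 8 redox partners counted, 0 passed at 100% and 0 at 1% heptanal, with a median log2 fold change of 0.15 and 0.10. Por, the reductase, was at 325, 254 and 227 CPM in the controls of days 22, 21 and 18 and at 261, 317 and 300 CPM at 100% heptanal, lower on day 22 and higher on the other days (0.16, SE 0.20, edgeR adjusted p = 0.841). Of 9 genes of heme synthesis and breakdown, 0 passed in either comparison, with a median of -0.13 at 100% heptanal. Among 13 receptors that induce P450 genes and their feedback genes, 9 were tested and 0 passed. Hnf4a, a regulator of P450 genes in liver, was at 0 in all mice, and Ahr was at 14.7 ± 7.32 CPM (SD, n = 9).

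Several members differed by postnatal day, which is given as a description with no test. In 12 of 36 P450 genes all 3 mice of day 22 lay above all 3 of day 18, as in 20% of all genes tested, and in 5 of 36 they lay below, as in 24.6%. Higher on day 22 were Cyp2f2 (3580 against 1768 CPM), Cyp1a2 (714 against 441), Cyp4a12b (89.4 against 42.1), Cyp2e1 (43.3 against 11.8) and Cyp26b1 (18.5 against 7.53), with Cyp2d22, Cyp27a1, Cyp46a1, Cyp4a12a, Cyp4f13, Cyp4f18 and Cyp4f39. Lower on day 22 were Cyp4v3, a fatty acid hydroxylase (6.39 against 32.3 CPM), Cyp51 (13.9 against 34.9), Cyp2j6 (13.8 against 31.4), Cyp3a13 of the drug-metabolising family 3 (0.764 against 14.4) and Cyp1b1 (1.06 against 4.40). Cyp2a5 was highest on day 21 in each group, with day means of 3529, 4362 and 3472 CPM on days 22, 21 and 18. Cyp2g1 had day means of 836, 819 and 815 CPM, but its controls ran from 801 to 468 CPM between days 22 and 18 and the 100% heptanal mice from 1006 to 1386. Family 2 as a whole went from 4558 to 3499 CPM per kilobase between days 22 and 18, and family 3 from 0.259 to 4.87.

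The day 21 mouse given 1% heptanal resembled day 22 in several of the genes lower on day 22, while those higher on day 22 were mixed. Cyp3a13 was at 0.869 CPM in that mouse, and at 17.8 and 14 CPM in the control and the 100% heptanal mouse of day 21. Cyp4v3 was at 5.73 CPM in it, and at 34.8 CPM in each of the other two. These values lie with those of day 22, where Cyp3a13 ranged from 0.295 to 1.08 and Cyp4v3 from 1.62 to 9.03 CPM. Of the genes higher on day 22, Cyp2f2 was at 2276 CPM in that mouse, between 1871 and 2744 CPM in the other day 21 mice. Cyp2e1 was at 37.0 CPM in that mouse, within its day 22 range of 34.1 to 54.5 CPM.

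Base composition moved with these day differences. The median exon GC content was 53.1% for the 12 P450 genes higher on day 22, 45.0% for the 5 lower ones and 50.4% for the other 19. Across genes, the log2 difference between days 22 and 18 had a rank correlation with GC content of 0.54 over the 36 P450 genes and of 0.50 over 14851 genes. With the GC content of the last 500 exon bases, nearer the priming site, it was 0.31 and 0.39. The genes share the same 6 libraries and are not independent replicates. Of the 9 sustentacular markers, 5 had a higher mean on day 22 than on day 18 and 4 a lower one. Without overlap, 1 was higher and 2 were lower, the latter Ermn (3.0 against 66.3 CPM) and Ugt2a1 (380 against 1628 CPM), while Cbr2 was at 2579 and 2685 CPM. The sustentacular sum was 5147 to 6538 CPM on day 22 and 5220 to 10417 CPM on day 18. Of the 7 gland markers, 3 were higher without overlap and 2 lower. Among them Obp1a was at 3949 against 462 CPM and Bpifb9b at 14067 against 28450 CPM, with sums of 14940 to 23731 CPM on day 22 and 24826 to 43408 CPM on day 18. All 4 hemoglobin genes were higher on day 22 without overlap, with sums of 7614 to 12390 CPM against 1031 to 1677 CPM. Of these, Hba-a1 and Hba-a2 had the same value in every mouse and are not separate measurements. The part of base composition and of these cell types in the day differences was not tested.

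**Figure D5:**
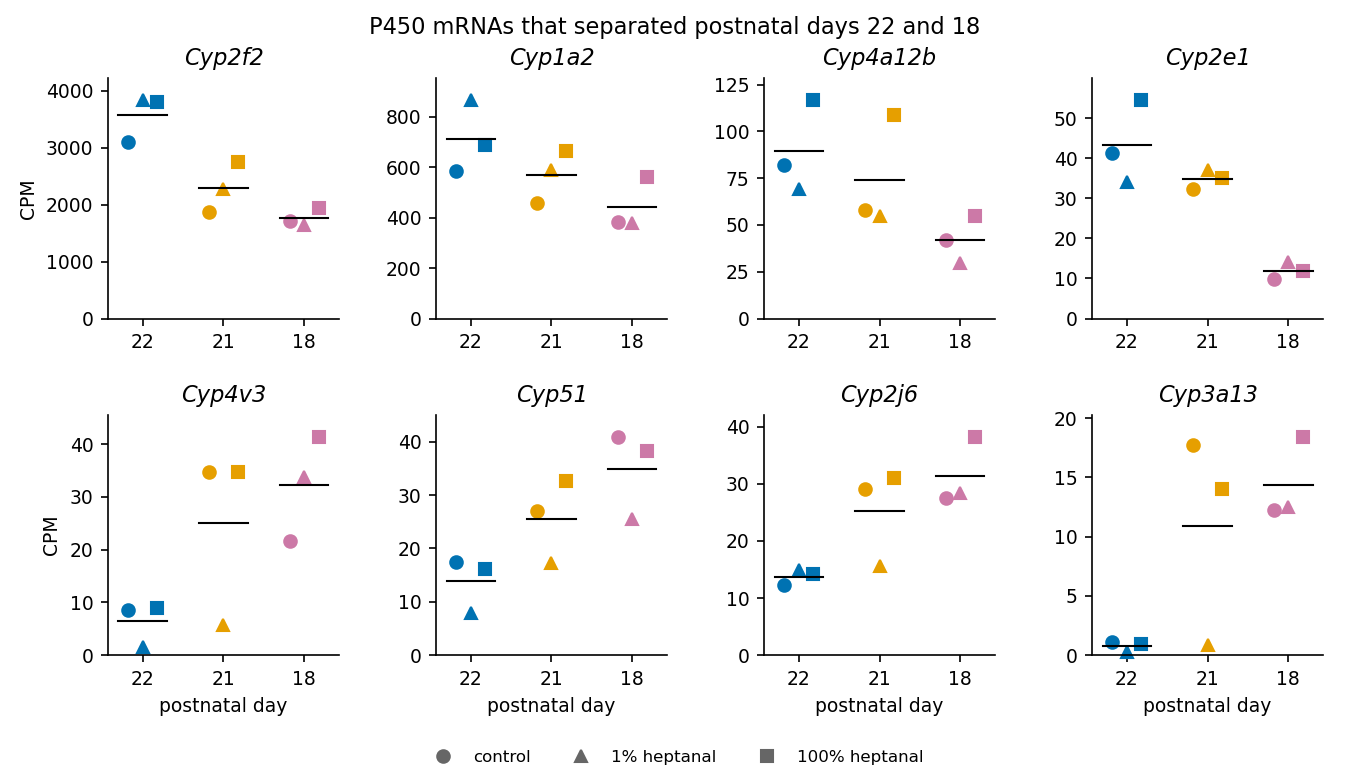
CPM of 8 P450 genes in each mouse by postnatal day, with symbols for group and a line at the mean of the day. In the upper row (Cyp2f2, Cyp1a2, Cyp4a12b, Cyp2e1) all mice of day 22 lie above those of day 18, in the lower row (Cyp4v3, Cyp51, Cyp2j6, Cyp3a13) all lie below, and the day 21 mouse given 1% heptanal sits low in the lower row, at 0.869 CPM for Cyp3a13.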

How the data were processed

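Per the methods, Bowtie placed the reads on mm10 and BEDTools counted them per gene, with versions not given in the sources used here. The authors deposited 1 table per mouse without a header. Its columns were identified from their values: column 2, of whole numbers, was taken as counts of uniquely mapped reads, and the last column, 21, as the authors' estimated counts after a rescue scheme for shared reads, which were rounded to whole numbers. Every statement on shared reads rests on this reading. Nothing in the tables is normalized. The order of genes differed between tables, and genes were matched by symbol.

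All 14930 genes passing filterByExpr were fitted in edgeR 4.0.16 (R 4.3.3) with TMM normalization, glmQLFit and glmQLFTest, group and postnatal day as terms, and Benjamini-Hochberg adjustment at 0.05. CPM values use TMM library sizes. Standard errors are the log2 fold change over the square root of the test statistic. The methods name edgeR with no design. The day was kept as a block because the labels give 1 mouse of each group per day and the methods state that a replication holds littermates of the same sex. Deviations from group means of same-day mice had correlations of 0.179 to 0.761 over all genes in 9 pairs (mean 0.573), against a mean of -0.270 in the other pairs. The scripts were tested on simulated data.

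Exon lengths, GC content and 50-base windows came from RefSeq annotation of GRCm38.p6, which held all 102 P450 genes and 23427 of the 23607 genes. Windows were compared on both strands for exact matches.

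Genes were named by rule: P450 genes past the threshold, the 10 with the highest level per length, the 5 with the lowest p at 100% heptanal, 12 known in the nose or as dioxin receptor targets, the 3 with the highest share of shared reads among those with a mean of 100 or more counts, Por, and list members past the threshold. Other genes were named after their values were seen. The members and lists were chosen with earlier results of these data known. Other settings tried were uniquely mapped counts, other scalings, filters and tools (DESeq2 1.42.0, the likelihood ratio test), no block, and each of the 9 mice left out. Counting limits cover counting error only, since reads from PCR carry no molecular identifiers.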

Additional observations from a re-analysis of the deposited data

How the results depend on the processing

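At 100% heptanal against control, 0 P450 genes were called in the reported fit, 0 with no replicate block, 3 by DESeq2 and 1 by the likelihood ratio test. At 1% heptanal these counts were 0, 0, 1 and 0, and at 100% against 1% heptanal 0, 0, 5 and 2. Leaving out each mouse in turn gave 0 P450 genes at either concentration against control, and 0 to 1 at 100% against 1% heptanal, where Cyp4v3 was called without the day 18 mouse given 1% heptanal. Over all genes, the calls at 100%, at 1% and between them were 48, 0 and 12 as reported, 2, 0 and 2 with no replicate block for the same-day pairing, 297, 14 and 226 by the likelihood ratio test and 329, 101 and 309 by DESeq2. With no filter on low counts they were 76, 1 and 25, with the 2 groups alone 165, 0 and 2, and scaled by sustentacular markers 3, 0 and 4. Leaving out 1 mouse gave 1 to 65 calls at 100% heptanal, with 1, 3 and 6 without the control of day 22, 21 and 18, 16, 9 and 13 without the 100% mouse of those days, and 39 to 65 without a 1% mouse.

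Scaling by sustentacular markers turned the log2 fold change at 100% heptanal to -0.29 for Cyp2a5, -0.23 for Cyp2f2, -0.14 for Cyp1a2, -0.17 for Cyp2b10, -0.27 for Cyp2e1, -0.31 for Cyp2j6 and -0.096 for Cyp4b1, where the median of all genes moved to -0.57 by construction. Cyp26b1 ranged from -0.38 to 0.0067 as each mouse was left out, and turned without the day 22 mouse given 100% heptanal. Cyp2g1 passed the threshold with DESeq2 (0.85) and with the likelihood ratio test (0.86). For 100% heptanal against control, the other 239 values of 14 named genes kept their direction and their side of the threshold. This count leaves out the other comparisons. At 1% heptanal against control, for example, the values of Cyp2b10 and Cyp2j6 turned without the day 21 mouse given 1% heptanal.

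The share of family 2 was 88.0% without division by length and 81.6% with uniquely mapped counts. The share of Cyp2a5 was 4.29% with uniquely mapped counts and 40.3% on day 22 alone. The geometric mean over days of the ratio of the P450 share to the control was 1.29 at 100% heptanal, and 0.865 over sustentacular markers. At 1% heptanal it was 1.09, and 1.12 with uniquely mapped counts. The causes were not tested, except that uniquely mapped counts leave out shared reads. With 3 mice per group, small changes in the 36 P450 genes tested can have been missed. Cyp2g1, at a log2 fold change of 0.86 at 100% heptanal, did not pass in the reported fit. A result of 0 genes passing therefore does not show an absence of change. Changes in the 30 P450 genes counted but not tested were not assessed at this depth.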
